A study of Homo sapiens with 3 samples.

Results

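The MECOM locus on the long arm of chromosome 3 was described from 2 deposited lists of HMGA1 ChIP-seq peaks in DAMI cells. DAMI was described as a megakaryoblastic leukaemia line and was later reported to derive from the erythroleukaemia line HEL; the labels give its disease as MPN/AML. Its members were all peaks of either list whose summit lay from 167800000 to 170400000 on chromosome 3 of the hg19 build, a window of 2.6 Mb chosen by position alone. It held 461 of 385953 peaks in the list called over input DNA (the input list) and 328 of 263033 peaks in the list called over histone H3 ChIP (the H3 list). The series has 3 libraries of sonicated nuclei, with 1 library each of HMGA1 ChIP, H3 ChIP and input DNA made without antibody, all from the same untreated line grown in serum-containing medium. No genotype is given for the line. Both lists were called from the same HMGA1 library, so a site found in both is not a replicate, no comparison below has a replicate error, and every interval covers counting error only. MECOM is 580.3 kb long on the minus strand, with its 3′ end at 168801287, so its 5′ end is at the higher coordinate. The side with lower coordinates is called the 3′ flank and the side with higher coordinates the 5′ flank.

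MECOM, the MDS1 and EVI1 complex locus, encodes zinc-finger transcription factors that blood stem cells need for self-renewal. Transcription from the outermost start gives a long form with a PR domain, and internal starts give the shorter EVI1 form without it. Rearrangements that bring foreign enhancers to the gene raise EVI1 in a group of myeloid leukaemias with poor outcome. HMGA1 is a small architectural protein that bends DNA through AT-hooks, which contact runs of A and T in the minor groove. In the order of RefSeq genes, GOLIM4, a Golgi membrane protein, is the next protein-coding gene past the 3′ end. Beyond the 5′ end the same order gives TERC, the RNA template of telomerase, and the protein-coding genes ACTRT3 and MYNN.

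No HMGA1 peak lay at the outermost MECOM start. Neither list had a summit within 10 kb of it, and the peak-free stretch around it ran from 169369892 to 169391946 (22.1 kb) over input and from 169364374 to 169392039 (27.7 kb) over H3. Gaps of this size were not particular to the start: the longest inside the gene was 32.6 kb over input and 36.4 kb over H3. How often other gene starts lack a peak within 10 kb was not examined. The RefSeq promoter at the outermost start is shown as the sequence of that start. It was not placed on hg19, so its position in the gap rests on the gene's 5′ end alone. It covers the 250 bases before the start and the 50 after it (GRCh38.p14, minus strand, written 5′ to 3′), and capitals mark its longest runs made only of A and T.

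MECOM outermost promoter: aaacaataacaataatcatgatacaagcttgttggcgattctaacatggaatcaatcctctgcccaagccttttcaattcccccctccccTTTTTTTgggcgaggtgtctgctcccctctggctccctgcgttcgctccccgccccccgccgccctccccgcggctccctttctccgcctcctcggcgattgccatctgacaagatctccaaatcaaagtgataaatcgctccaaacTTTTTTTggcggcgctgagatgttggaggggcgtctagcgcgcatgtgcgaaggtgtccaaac

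This window was 45.3% A and T, which is above 58.9% of 35116 RefSeq promoter windows of the same length, whose median was 41.3%. Its longest run of A and T had 7 bases and occurred at 2 places. A run at least as long, on either strand, is found in 48.0% of these windows. Of the 3 RefSeq start windows of MECOM, the inner ones were not placed on hg19, so no peak was set beside them.

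The peaks nearest the gap at the start differed in height between its sides. The nearest peak upstream, from 169391947 to 169392335 and 10.6 kb outside the gene, had 43 HMGA1 reads at its summit and folds of 9.79 over input and 6.97 over H3. It was followed 15.1 kb upstream by a peak from 169396539 to 169396884 with 37 reads and folds of 7.69 and 7.91. Inside the gene the nearest input-list peak, from 169369696 to 169369891, had 15 reads, a fold of 4.01 and no H3 counterpart. The first peak inside the gene that was present in both lists lay 17.3 kb from the start, with 25 reads and folds of 4.77 over input and 5.6 over H3. The upstream pair was thus higher in reads and in both folds than the nearest peaks inside. This did not extend to the next peaks present in both lists. The one inside, 19.5 kb from the start, had 28 reads and folds of 6.78 over input and 6.36 over H3. The one upstream, at 40.7 kb, had 22 reads and folds of 5.05 and 4.59.

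The locus as a whole was denser in peaks than the rest of chromosome 3, but not than the part of the long arm that follows it. Over input it carried 177.3 peaks per Mb, against 141.5 on chromosome 3 outside it. Over H3 it carried 126.2, against 88.7. The ratios were 1.25 over input (95% interval 1.14 to 1.37) and 1.42 over H3 (1.27 to 1.59). From the locus to the end of the long arm the densities were 170.1 over input and 129.4 over H3. Relative to that part the locus had 1.04 times the density over input (0.945 to 1.15) and 0.975 times over H3 (0.868 to 1.09). Peaks covered 6.29% of the locus over input and 4.21% over H3, against 5.02% and 2.87% of chromosome 3 outside it. Such a density was common along the genome: of 1069 other autosomal windows of this length with any peak, 280 held more input-list peaks, and of 1068 such windows 266 held more H3-list peaks. On chromosome 3 it was 19 and 18 of 76 windows.

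The MECOM gene body held 105 input-list and 85 H3-list peaks. That was 22.8% of the locus's input-list peaks and 25.9% of its H3-list peaks on 22.3% of its length. Its density was 180.9 peaks per Mb over input, against 183.8 in the 3′ flank and 168.9 in the 5′ flank. Over H3 it was 146.5, against 115.9 in the 3′ flank and 124.7 in the 5′ flank. Against both flanks together the gene body's ratio was 1.03 over input (0.818 to 1.28) and 1.22 over H3 (0.94 to 1.56), so neither differed from 1 beyond counting error. With flanks of 500 kb on each side the ratios were 0.826 and 0.964. These are below 1 but within the intervals above, and no interval of their own was computed. Against chromosome 3 outside the locus it was 1.28 over input (1.05 to 1.55) and 1.65 over H3 (1.32 to 2.04).

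**Figure D1:**
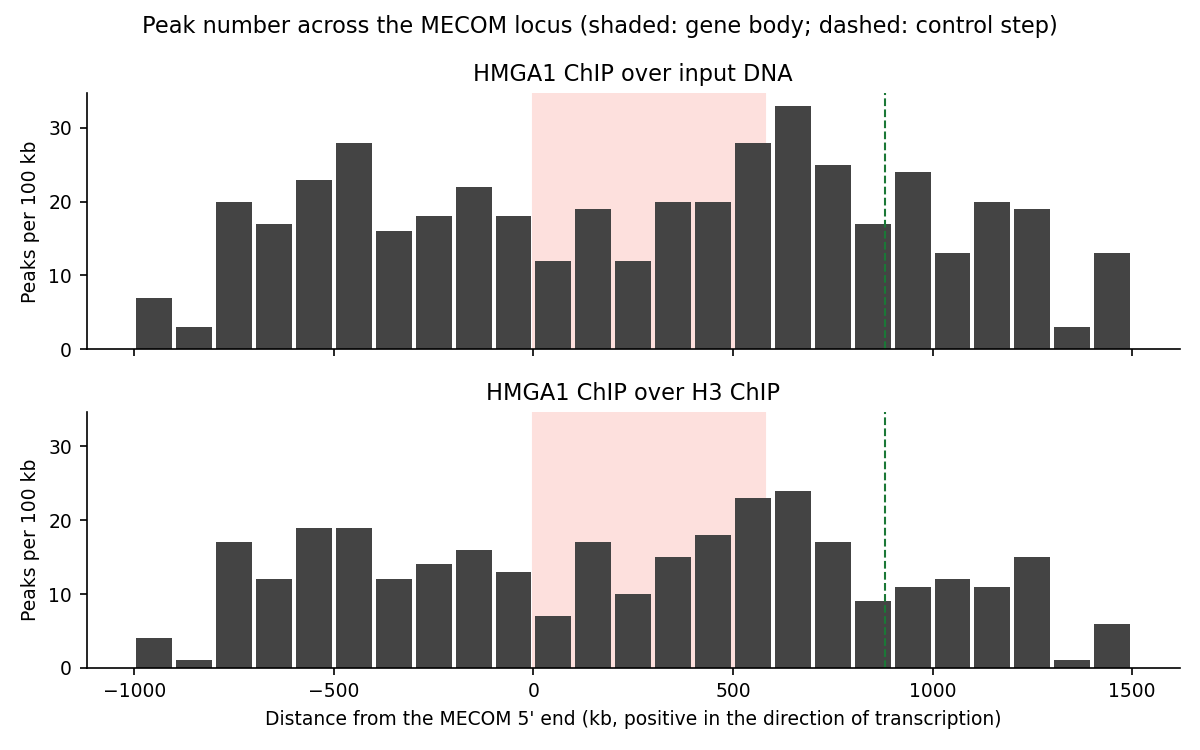
Number of HMGA1 peak summits in each full bin of 100 kb (vertical axis), by distance from the MECOM 5′ end in kb along the direction of transcription (horizontal axis), for the input list (top) and the H3 list (bottom). The shaded gene body begins with 12 and 7 peaks in its first 100 kb, and the bin from 600 to 700 kb, just past the gene, is the highest in both lists with 33 and 24.

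Peaks were unevenly spread along the gene. The first 100 kb after the outermost start held 12 input-list peaks, and the next bins of 100 kb held 19, 12, 20 and 20. The bin from 500 to 600 kb, which contains the 3′ end of the gene, held 28, and the bin past it held 33. In the H3 list the same bins held 7, 17, 10, 15, 18, 23 and 24 peaks. The 5′-most bin thus had the fewest peaks of the gene, level with the bin from 200 to 300 kb in the input list, and no test was run on these small counts. The longest peak-free stretch of the gene also lay near its 5′ end, from 169320937 to 169353515 (32.6 kb) in the input list and from 169320920 to 169357362 (36.4 kb) in the H3 list. At the 3′ end peaks stood closer: the nearest summit outside the gene was 2.13 kb away with 29 reads and folds of 6.58 over input and 7.3 over H3.

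The control level at the peaks changed abruptly in the 3′ flank, and MECOM lay wholly on the raised side. Input DNA follows how much of each site enters the libraries, and the peak caller uses its local level, or a genome-wide floor where the local level is lower. Levels were recovered from the deposited folds and p-values, in reads, with floors of 2.78 for input and 2.19 for H3. In the input list the level left its floor between the summits at 168495927 and 168499451, which is 301.8 to 305.4 kb past the 3′ end of the gene. In the H3 list the same split fell between 168495927 and 168505915. On the MECOM side of this step 24 of 356 input-list peaks of the locus lay at the floor (6.74%), against 81 of 105 beyond it (77.1%). For H3 the shares, split at the input-list step, were 53 of 266 (19.9%) against 55 of 62 (88.7%). The step was placed where it best separated these same peaks, so the shares within the locus describe it and do not test it. The raised side was not uniform. In the 5′ flank 21 of 172 input-list peaks were at the floor (12.2%). In the bin of 100 kb from 800 to 900 kb upstream of the gene it was 2 of 3, and in the next bin upstream 4 of 7. Over H3 these 2 bins had 0 of 1 and 1 of 4 at the floor.

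Within the gene body no input-list peak of 105 was at the floor, which allows a share of up to 3.53%. Of the gene body's 85 H3-list peaks 22 were at the floor (25.9%, 17.8 to 36.1). The median input level there was 1.29 times the floor, and the median H3 level 1.12 times. In the whole lists 36.4% of input-list and 42.9% of H3-list peaks were at the floor, with median levels of 1.14 and 1.05 times. On chromosome 3 outside the locus 52.4% and 58.2% were at the floor. The whole-list shares thus lie between those of the 2 sides of the step. Peaks outside the locus were not used to place the step, and of those between the locus and the end of the long arm 13.3% in the input list and 31.3% over H3 were at the floor. From the step to the end of the long arm, 12.8% of input-list peaks were at the floor, against 77.8% in the 20 Mb before it, and over H3 these shares were 30.5% and 86.8%. In bins of 2 Mb the input share ranged from 2.04% to 35.0% over the 15 bins on the MECOM side, against 69.9% to 82.7% over the 10 bins beyond, where the bin next to the step on each side includes part of the locus. The H3 shares ranged from 4.72% to 55.4% on the MECOM side, against 81.7% to 89.5% beyond. The ranges did not overlap in either control. Whether the step follows a change in DNA copy number was not tested.

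**Figure D2:**
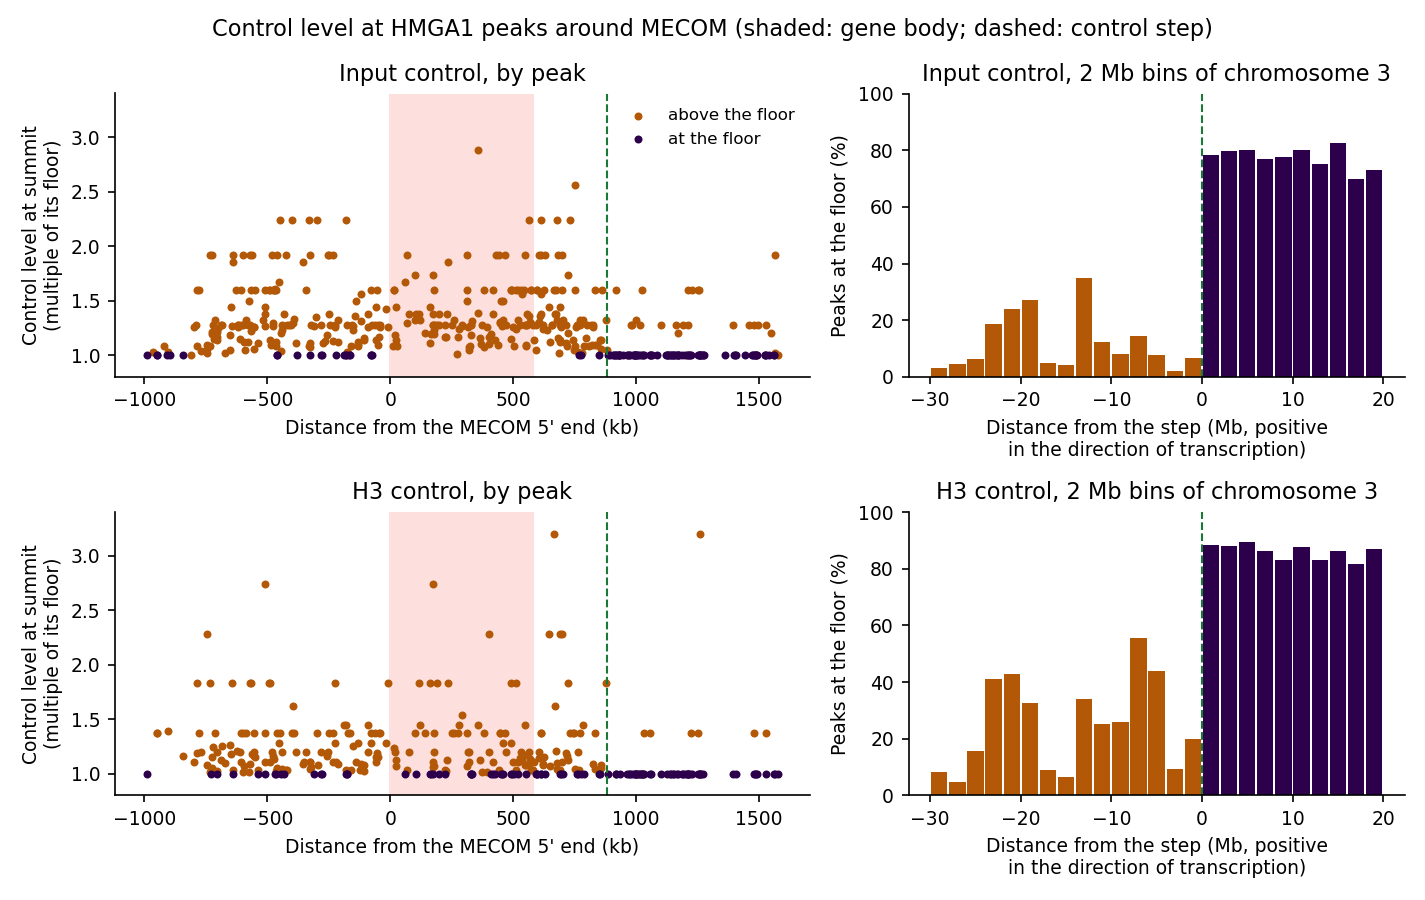
Left, control level at each peak summit of the locus as a multiple of its genome-wide floor (vertical axis) by distance from the MECOM 5′ end in kb (horizontal axis), with peaks above the floor in orange and at it in purple. Right, percent of peaks at the floor in bins of 2 Mb of chromosome 3 by distance from the step, with the MECOM side in orange and the far side in purple; all bins on the MECOM side lie at or below 35.0% (input, top) and 55.4% (H3, bottom), and all bins beyond lie at or above 69.9% and 81.7%.

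HMGA1 reads at called summits were also higher on the MECOM side. In the input list the median summit held 21 reads there, against 17 beyond the step, and in the H3 list 23 against 21. Calling asks for more reads where the control is raised, and its part in this difference was not tested. The median fold differed less, at 4.59 against 4.61 over input and 5.38 against 5.25 over H3. All 12 input-list peaks of the locus with a fold of at least 10 lay on the MECOM side, as did all 11 of the H3 list, a fold that 2.08% of all input-list and 2.86% of all H3-list peaks reach. Beyond the step the count was 0 of 105, which allows up to 3.53%, and 0 of 62, which allows up to 5.83%. The MECOM side held 3.37% (1.94 to 5.8) and 4.14% (2.32 to 7.25) of such peaks, so the input-list intervals overlap, as do those over H3.

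The density of the gene body relative to its surroundings changed with the side of the step it was set against. Relative to the part of chromosome 3 after the locus, which is on the raised side too, the ratio was 1.06 over input (0.868 to 1.29) and 1.13 over H3 (0.902 to 1.4). These are below the 1.28 and 1.65 found against all of chromosome 3 outside the locus. The stretch of 301.8 kb between the gene and the step was the densest part of the locus, with 79 input-list peaks (261.7 per Mb) and 54 H3-list peaks (178.9 per Mb). The gene body had 0.691 times this density over input (0.511 to 0.938) and 0.819 times over H3 (0.575 to 1.17). Relative to the 3′ flank beyond the step its ratio was 1.21 (0.911 to 1.6) over input and 1.65 (1.18 to 2.33) over H3. Both of these stretches end at the step, which was placed on the same peaks. The intervals take that edge as fixed, so they describe the ratios and do not test them.

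Called peaks of the locus were of ordinary height and width. The median fold was 4.59 over input (quartiles 3.7 and 6.06) and 5.36 over H3 (4.42 and 6.54), against 4.5 and 5.25 in the whole lists. The median summit held 20 HMGA1 reads over input and 23 over H3, against 19 and 23 in the whole lists. Median widths were 296 bp and 280.5 bp, against 297 and 283 bp. In the gene body the upper quartile of the fold was 6.58 over input and 6.98 over H3, against 6.06 and 6.25 in the 5′ flank and 5.92 and 6.76 in the 3′ flank.

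High peaks of the gene lay outside its first 100 kb, where the highest fold was 6.78 over input and 6.36 over H3. This depends on the bin edge, since a peak of 11.8-fold over input and 10.9-fold over H3 lay 102.7 kb from the 5′ end. A fold of at least 10 was reached by 12 of the 461 input-list peaks (2.6%, Wilson 95% interval 1.5 to 4.49), where the whole list has 2.08%, and by 11 of the 328 H3-list peaks (3.35%, 1.88 to 5.9), where the whole list has 2.86%. These shares do not differ from the background beyond counting error. In the gene body the count was 5 of 105 over input (4.76%, 2.05 to 10.7) and 7 of 85 over H3 (8.24%, 4.05 to 16.0). The H3 interval lies above the share in that list as a whole, and above the 3.39% in the raised part of chromosome 3 after the locus. The input interval includes both the whole-list share and the 2.47% of that part. Between step and gene the share was 3.7% over H3 (2 of 54, 1.02 to 12.5) and 5.06% over input (4 of 79, 1.99 to 12.3). In the 5′ flank it was 1.57% over H3 (0.433 to 5.56) and 1.74% over input (0.595 to 5.0). The gene-body intervals overlap all of these. The intervals treat peaks as independent, and this threshold on fold was not varied.

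**Figure D3:**
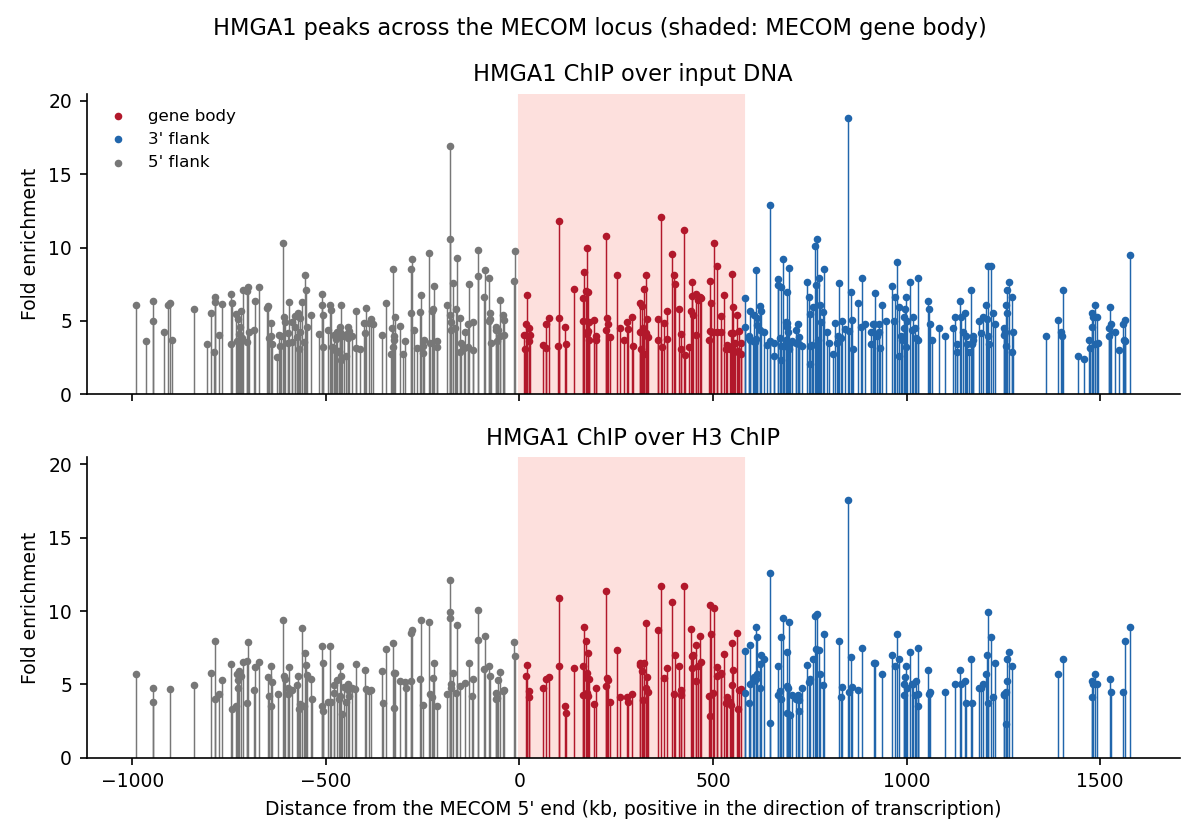
Fold enrichment at the summit (vertical axis) of every peak of the locus by distance from the MECOM 5′ end in kb (horizontal axis), over input DNA (top) and over H3 ChIP (bottom); each line is a peak, red in the gene body, blue in the 3′ flank and grey in the 5′ flank. The highest peak is at 18.8-fold and 17.6-fold in the 3′ flank, and gene-body peaks reach 12.1-fold and 11.7-fold.

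The highest gene-body peak over input lay from 169015865 to 169016495, 62.9% of the way from the 5′ to the 3′ end. It had 50 HMGA1 reads, a fold of 12.1 over input and a fold of 11.7 over H3. A peak from 169278572 to 169279118, 102.7 kb inside the 5′ end, had the most reads of the gene, 54, with folds of 11.8 and 10.9. A peak from 168956986 to 168957529 had 46 reads and folds of 11.2 and 11.7. These 3 peaks lay in different parts of the gene, 365.3, 102.7 and 424.4 kb from its 5′ end.

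A peak from 169156545 to 169157331, 224.4 kb from the 5′ end and 787 bp wide, had 45 reads and folds of 10.8 over input and 11.4 over H3. A peak from 168877985 to 168878698 near the 3′ end had 40 reads and folds of 10.3 and 10.2. The H3 list added peaks from 168988067 to 168988423 (10.6-fold, 42 reads) and from 168889062 to 168889564 (10.4-fold, 41 reads), whose folds over input were 9.57 and 7.71. All 7 gene-body peaks of at least 10-fold over H3 thus had at least 7.71-fold over input as well.

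Beside these sites were gene-body peaks whose height depended on the control. The peak from 169206330 to 169206900, 175.1 kb inside the 5′ end, had 47 HMGA1 reads and a fold of 9.94 over input but 5.42 over H3. Its H3 level was 2.74 times the H3 floor, against 1.38 times for input. The peak from 168981422 to 168981804 had 32 reads and folds of 8.13 and 4.36, with H3 at 2.28 times its floor, against 1.1 times for input. At 169206330 and 168981422 H3 was therefore above input relative to the floors, each read at its own list's summit, 43 and 4 bp apart. The reverse held at 168888930 to 168889587, where input was at 1.6 times its floor and H3 at its floor. The control levels at these 3 sites were low, from 2.19 to 6.0 reads, and no interval was computed for single sites.

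The highest peaks of the locus lay in the flanks. The highest in both lists was in the 3′ flank from 168531598 to 168532306, 269.5 kb past the end of MECOM and 32.3 kb to the MECOM side of the first raised summit. It had 70 HMGA1 reads, a fold of 18.8 over input and 17.6 over H3, and both controls were at their floor. By fold it ranked 19 of all input-list peaks and 28 of all H3-list peaks, and 4 and 2 on chromosome 3. Only 3 of the 79 input-list peaks between step and gene, this one among them, had input at its floor. Input was also at its floor at the high flank peaks from 169559699, 169560424 and 168613146, described below.

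The second by reads and by fold over input, and the third by fold over H3, was in the 5′ flank from 169559699 to 169560089, 178.3 kb upstream of the MECOM start, with 63 reads. Its folds differed between lists, 16.9 over input with the control at its floor, and 12.1 over H3 with the control at 1.45 times its floor. By fold it ranked 42 over input and 1700 over H3. A neighbouring peak followed from 169560424 to 169560812, with 39 reads and folds of 10.6 and 9.94. In the 3′ flank a broad peak from 168732504 to 168733883, 67.7 kb past the gene, was the widest of the locus in both lists (1380 bp over input and 1340 bp over H3). It had 52 reads and folds of 12.9 and 12.6.

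Other high flank peaks were smaller. The peak from 168613146 to 168613617 in the 3′ flank had 39 reads and folds of 10.6 over input and 9.77 over H3. The peak from 169992753 to 169993674 in the 5′ flank was 922 bp wide and had 42 reads with folds of 10.3 and 9.41. Of the 10 highest-fold peaks in the input list 5 lay in the gene body, 3 in the 3′ flank and 2 in the 5′ flank. In the H3 list these numbers were 7, 2 and 1. All of these peaks had a counterpart in the other list, as had 98.5% of all input-list peaks with at least 25 reads. Of the 10 peaks, 8 were in the top 10 of both lists, which share the HMGA1 library. By q-value, which rests on the same reads and control levels as the fold, 7 of 10 were shared between the lists. Of these top 10, 5 (input list) and 7 (H3 list) lay in the gene.

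Peaks were sparse in parts of both flanks. The longest peak-free stretch over input ran from 168021377 to 168107572 (86.2 kb) in the 3′ flank, and over H3 from 167989462 to 168110156 (120.7 kb), which contains it. The 2 peaks that border the input-list stretch had 14 and 15 reads and no H3 counterpart. In the 5′ flank the stretch from 170222253 to 170278065 (55.8 kb) was peak-free over input, and that from 170222231 to 170284707 (62.5 kb) over H3. Only 3 input-list peaks and 1 H3-list peak lay 800 to 900 kb upstream of the gene. The median distance between neighbouring summits was 2.92 kb in the gene body over input and 3.71 kb over H3, against 3.38 and 4.22 kb in the locus as a whole.

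More of the gene body's input-list peaks were also called over H3 than in the list as a whole, but not beyond counting error when set against the raised part of chromosome 3 after the locus. Of the 461 input-list peaks of the locus 321 overlapped an H3-list peak (69.6%, 65.3 to 73.7), where the whole input list has 65.8%. In the gene body it was 85 of 105 (81.0%, 72.4 to 87.3), and in that raised part 73.5% (72.2 to 74.8). The flanks had 62.5% (55.3 to 69.2, 3′) and 70.3% (63.1 to 76.7, 5′). In the other direction 322 of the 328 H3-list peaks overlapped an input-list peak (98.2%, 96.1 to 99.2), where the whole H3 list has 98.3%. All 85 in the gene body and all 116 in the 3′ flank did so, close to the whole-list share. In the 5′ flank it was 121 of 127 (95.3%, 90.1 to 97.8), an interval below the whole-list share.

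The input-list peaks with no H3 counterpart were low. In the gene body the 20 such peaks had 10 to 19 HMGA1 reads and folds of 2.68 to 4.17, against 13 to 54 reads and folds of 2.93 to 12.1 for the 85 with a counterpart. Across the locus 11 of 72 peaks with 9 to 14 reads had a counterpart (15.3%, 8.75 to 25.3), against 10.4% of those with 8 to 14 reads in the whole list. The share was 53.0% (45.0 to 60.9) for 15 to 19 reads, against 55.4% in the whole list, and 91.4% (84.5 to 95.4) for 20 to 24 reads, against 92.4%. All 135 peaks with at least 25 reads had one, against 98.5% in the whole list. The intervals of all 4 classes include the whole-list shares. The 6 H3-list peaks with no input counterpart all lay in the 5′ flank, with 15 to 19 reads and folds of 3.73 to 4.75.

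The controls differed at a minority of overlapping peaks, about as often as in the whole lists. Over the 321 overlapping pairs of the locus, input exceeded H3 by more than 1.5 times, each relative to its floor, at 43 (13.4%, 10.1 to 17.6), and H3 exceeded input by as much at 13 (4.05%, 2.38 to 6.8). Over the 253964 pairs of the whole lists these shares were 12.2% and 4.13%. In the gene body the numbers were 13 and 4 of 85. In the gene body 32 pairs had their summits on an identical base. All 32 gave equal HMGA1 reads, which the shared HMGA1 library fixes in advance. Their median fold was 6.3 over input and 6.42 over H3, and input was above its floor at all 32 and H3 at 20. Because HMGA1 reads entered the H3 list after scaling by 0.787, equal reads over both floors give slightly different folds.

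**Figure D4:**
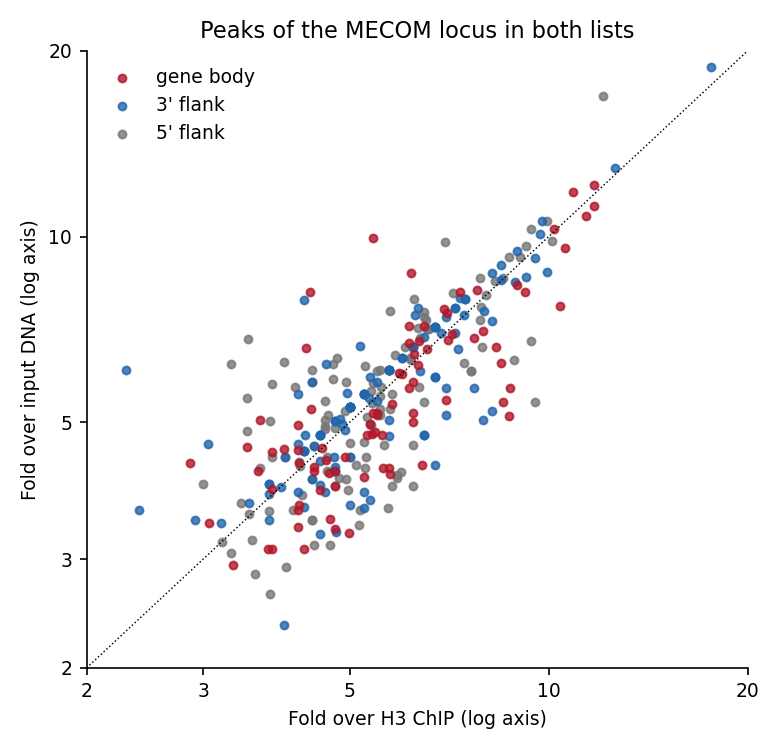
Fold over input DNA (vertical, log axis) and fold over H3 ChIP (horizontal, log axis) for the 321 input-list peaks of the locus with an H3 counterpart, red in the gene body, blue in the 3′ flank and grey in the 5′ flank; the dotted line marks equal folds. The gene-body peak at 9.94-fold over input and 5.42-fold over H3 lies well above the line, and the peak at 7.71-fold and 10.4-fold below it.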

How the data were processed

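Peaks were called with MACS2 on hg19, per the submitters' processing notes. Version, aligner and filters were not given in the sources used here. Both deposited peak lists are of the HMGA1 library, with input DNA or H3 ChIP as control. For each peak the authors give its interval and summit, a fold ratio, −log10 of the p-value and of the q-value, and a score in whole numbers. The highest q-value was 0.0499 (input list) and 0.0484 (H3 list). The peak names carry another prefix than HMGA1, which was taken to be this library from the list names.

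The lists hold no read counts and the depth is unknown. HMGA1 reads and control levels at summits were recovered as the whole number that gives back the deposited p-value and fold, taking the fold as reads plus 1 over control plus 1. This held for 385953 of 385953 input-list peaks and, with the HMGA1 reads scaled by 0.787, for 263032 of 263033 H3-list peaks, within 0.001 of the −log10 p-value. Unscaled, 1.55% of the H3-list peaks fitted. The recovery was tested on simulated data. Sites under 8 reads (input list) or 11 (H3 list) were never called.

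Members were taken by summit. Overlap means at least 1 bp. Intervals are Wilson (shares) or conditional binomial (density ratios) at 95%, and they treat peaks as independent. Chromosome length is the last base covered by a peak. The control step is the split of the locus's summits that best separates peaks at the floor from peaks above it. Named peaks were the 10 highest by fold and by q-value, the 5 widest, those within 2 kb of the start and those at the longest gaps; the others named were chosen after their values were seen. The locus, the measures and the named sets were chosen with earlier results of these data known. Promoters are from RefSeq (GRCh38.p14), used for sequence and gene order only. Neither a genome nor an annotation of hg19 was used, so exons, introns and peak sequences were not analysed. Computations used matplotlib 3.10.9, scipy 1.17.1, pandas 2.3.3, numpy 2.4.6 and Python 3.11.15. Coordinates are 1-based, with the summit as the start in the file plus the summit offset.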

Additional observations from a re-analysis of the deposited data

How the results depend on the processing

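No paired analysis was possible because there is 1 library per antibody and no result comes from a test; leaving out a replicate was not possible for the same reason. Of 40 alternatives over 12 results, 31 stayed within the interval of the reported value (or within 1.5 times of a count), 8 moved out of it and 1 reversed. Peak numbers stayed within 1.5 times of 461 and 328. Keeping peaks whose −log10 q-value reached 5, the median fold was 5.28 over input and 5.74 over H3, since the lowest peaks drop out, and the share of input-list peaks also in the H3 list was 77.1%. With a fold of at least 4 in both lists that share was 79.5%, and the share of H3-list peaks in the input list was 86.6%. With 50% of both peaks shared the share of H3-list peaks in the input list was 93.9%. Set against the raised-control part of chromosome 3 after the locus, the density ratio of the gene body was 1.13 over H3 and 1.06 over input, that of the locus 1.04 over input, and that of the locus over H3 reversed to 0.975. The intervals of these 4 ratios all include 1. The ratio of the gene body to its flanks, whose interval included 1 as reported, was 0.826 over input and 0.964 over H3 with flanks of 500 kb. With raised-side flanks it was 0.952 over input. These values are below 1 but stayed within the reported intervals. The raised-control setting, the flanks on the raised side alone and the raised-side median fold were chosen after seeing the data. The causes were not tested. Control levels below the floor are never seen, so folds there are understated.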

Other observations

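The inner MECOM start windows of RefSeq, which could not be set beside the peaks, each had 47.7% A and T, above 63.8% of all RefSeq promoter windows. The middle window holds a run of A and T of 15 bases, and a run at least as long is found in 4.97% of the windows. In the innermost window the longest run had 8 bases, and 36.9% of the windows hold a run at least as long.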
